A study of Homo sapiens with 6 samples.

Results

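DNA topoisomerases cut, turn and reseal DNA, and tyrosyl-DNA phosphodiesterases cut topoisomerases off DNA when they stay trapped there. The 8 genes described here were the rows of the count table named TOP1, TOP2A, TOP2B, TOP1MT, TOP3A, TOP3B, TDP1 and TDP2, of 58735 genes in all, and 7 of them passed the filter on low counts. They were chosen by name for these known roles. The rule uses no measured value, but the choice was made with earlier results of these data known. RNA was sequenced from parent MDA-MB-231 cells, a triple-negative breast cancer line, and from ADRr cells, a resistant line made from it by stepwise exposure to Adriamycin (ADR, doxorubicin). ADRr cells were grown out from single clones after limiting dilution, so their values describe selected clonal cells and not resistant cells at large. Each group had 3 libraries (replicates 1 to 3), and the labels give the same serum-containing medium for both groups and no dose of ADR at harvest. The methods describe medium with ADR at high doses for expanding the surviving cells, so whether ADR was present at harvest is not given in the sources used here. The design text speaks of 3 time points that no label names. Nothing says that the libraries of a group came from separate cultures, so p-values measure the spread between these libraries, which may be technical.

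Type II topoisomerases (TOP2A and TOP2B) pass a DNA duplex through a break that they make and reseal in another duplex, and type I enzymes (TOP1, TOP1MT, TOP3A and TOP3B) work through a break in a single strand. ADR traps type II enzymes on cut DNA, so that the enzyme itself becomes part of the lesion. TDP2 releases trapped type II enzymes and TDP1 releases trapped TOP1, after proteases and SUMO-linked factors have worked on the protein.

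Total counts per library ranged from 15983985 to 18272314. CPM is the count of a gene per 1000000 counts of its library, scaled with edgeR's TMM factors of 0.987 to 1.01, and FPKM is the authors' value that also divides by gene length. ESR1 and PGR, the hormone receptors that triple-negative cells lack, had at most 1 and 0 counts in any library. VIM (345 to 528 CPM), CD44, KRT18 and KRT8 were present in every library, with KRT8 at 582 to 661 CPM in parent and 146 to 162 CPM in ADRr cells. CDH1, listed as low or absent, was at 13.3 to 16.4 CPM in parent and 5.89 to 8.13 CPM in ADRr cells. Of 6 luminal markers, 4 stayed under 1 CPM. GATA3 (24.8 to 32.3 CPM) and KRT19 (124 to 154 CPM in parent, 54.3 to 57.6 CPM in ADRr cells) were detected. ERBB2 was at 113 to 131 CPM in parent and 49.1 to 53.9 CPM in ADRr cells. All 8 leukocyte markers stayed under 1 CPM in every library, with sums of 0.0601 to 0.114 CPM in parent and 0.0611 to 0.327 CPM in ADRr cells. A call required both a fold change of 1.2 or more and an adjusted p no higher than 0.05, from edgeR's quasi-likelihood test with Benjamini-Hochberg adjustment over the 15242 genes tested.

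The RNA of both type II topoisomerases fell in ADRr cells while that of TOP1 rose. TOP2A was 4.55-fold lower (95% interval 4.2 to 4.93), TOP2B was 3.43-fold lower (3.13 to 3.76) and TOP1 was 1.90-fold higher (1.75 to 2.05), with 3 libraries in each group. TOP1MT was called higher by 1.22-fold, close to the threshold. TOP3A, TDP1 and TDP2 were 1.10-fold, 1.18-fold and 1.13-fold lower, which did not reach the fold change required, and TOP3B had too few counts for a test. Thus 4 of the 7 tested genes were called, beside 58.8% of all tested genes, with 2 of them higher and 2 lower, beside 29.2% and 29.6%. The groups did not overlap for all 7, beside 69.2% of all tested genes. With such a background the counts say little about these genes as a set, and the results lie in the size of single changes.

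**Figure D1:**
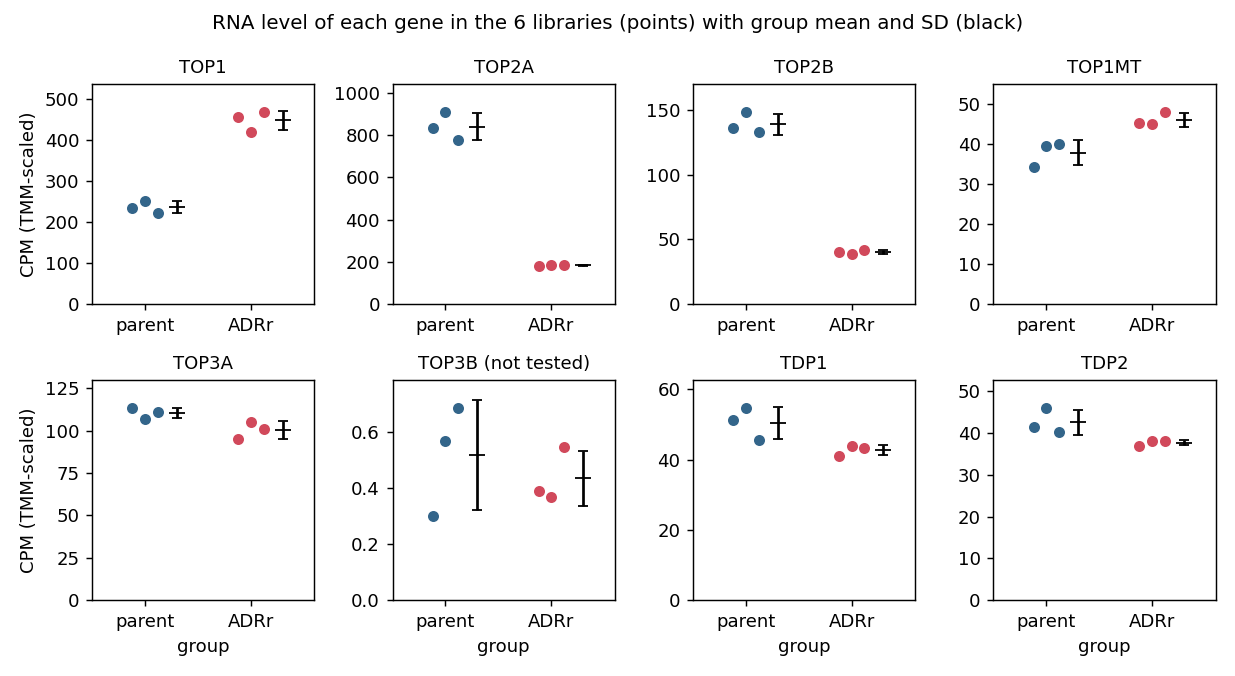
TMM-scaled CPM (vertical axes, each from 0) of the 8 genes in parent and ADRr cells, with a point for each library and the mean and SD in black. TOP2A and TOP2B dropped to 184 and 40.5 CPM, TOP1 climbed to 448 CPM, and the points of TOP3A, TDP1 and TDP2 lie close together in both groups.

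TOP2A (ENSG00000131747, chromosome 17, 40388516 to 40417950, minus strand) encodes the isoform of dividing cells, which separates sister chromatids before mitosis and is the main target of anthracyclines. Its level was 831, 906 and 778 CPM in parent replicates 1 to 3 and 182, 187 and 184 CPM in ADRr replicates 1 to 3. Every ADRr library thus lay far below every parent library, and the spread within ADRr cells was small. The means were 838 ± 64.4 CPM and 184 ± 2.62 CPM (SD, n = 3 libraries each), which put TOP2A at -2.19 ± 0.055 on the log2 scale (ADRr over parent, ± standard error; edgeR adjusted p = 3.3e-19). Of all tested genes, 1.54% had a fall at least as large. These are bulk samples, in which fewer cells with TOP2A RNA and less TOP2A RNA per cell cannot be told apart.

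TOP2B (ENSG00000077097, chromosome 3, 25597905 to 25664907, minus strand) encodes the isoform that is also made in cells that do not divide, where it acts at transcribed genes. It was at 136, 148 and 133 CPM in parent replicates 1 to 3 and at 40.6, 38.8 and 42 CPM in ADRr replicates 1 to 3. The groups were again far apart, with means of 139 ± 8.09 CPM and 40.5 ± 1.599 CPM (SD, n = 3 libraries each). On the log2 scale the change came to -1.78 ± 0.064 (± standard error; edgeR adjusted p = 1.7e-16), and 2.55% of tested genes fell at least as far. Per gene length, TOP2A RNA was 5.74, 5.74 and 5.49 times that of TOP2B in parent replicates 1 to 3 and 4.2, 4.52 and 4.11 times in ADRr replicates 1 to 3. TOP2A therefore remained the more abundant isoform, with a ratio that was lower in every ADRr library. The log2 ratio differed by -0.40 between the groups, against SDs of 0.036 and 0.072 within them (two-sided exact permutation test, p = 0.1, the smallest that 3 against 3 libraries can give).

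TOP1 (ENSG00000198900, chromosome 20, 41028818 to 41124487, plus strand) encodes the enzyme that relaxes supercoils ahead of replication and transcription and is the target of camptothecins. Parent replicates 1 to 3 held 235, 252 and 223 CPM and ADRr replicates 1 to 3 held 456, 421 and 468 CPM. The lowest ADRr library exceeded the highest parent library. The means of 236 ± 14.3 CPM and 448 ± 24.2 CPM (SD, n = 3 libraries each) placed the change at 0.92 ± 0.055 on the log2 scale (± standard error; edgeR adjusted p = 1.1e-12). A rise of this size or more was seen in 11.1% of tested genes. The annotation places 90 bases of TOP1 exons (2.41% of its length) under exons of PLCG1-AS1 on the other strand, which had 0 to 4 counts in any library, and a pseudogene on chromosome 1 (AL031274.1), which shares 3.49% of TOP1's stretches of 75 bases, had 1 to 11.

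The order of the genes by level changed accordingly. In parent cells TOP2A came first with 128 ± 9.88 FPKM, followed by TOP1 (61.9 ± 3.78), TOP2B (22.5 ± 1.31), TOP3A (16.7 ± 0.488), TDP2 (13.5 ± 0.939), TDP1 (7.95 ± 0.717), TOP1MT (5.75 ± 0.461) and TOP3B (0.0762 ± 0.0287), and no neighbours in this order overlapped (SD, n = 3 libraries). In ADRr cells TOP1 came first with 118 ± 6.68 FPKM, followed by TOP2A (28.1 ± 0.352), TOP3A (15.2 ± 0.747) and TDP2 (12.01 ± 0.182). TOP2B had moved from rank 3 to rank 7, at 6.58 ± 0.279 FPKM, where its libraries overlapped those of TDP1 (6.74 ± 0.212). Those of TDP1 in turn overlapped those of TOP1MT (7.02 ± 0.268), so the order of these 3 genes is not settled. The spread between libraries does not cover the error of comparing genes by annotated length, so equal levels are not shown either. Across libraries TOP1 made up 28.9 to 29.5% of the summed FPKM of TOP1, TOP2A and TOP2B in parent cells and 76.1 to 77.9% in ADRr cells. The sum itself went from between 198 and 228 FPKM to between 145 and 158 FPKM. The ratio of TOP1 to TOP2A per length, chosen after its values were seen and given without a test, was 0.486, 0.478 and 0.494 in parent replicates 1 to 3 and 4.33, 3.88 and 4.38 in ADRr replicates 1 to 3. FPKM uses the length of all annotated exons of a gene, so a gene with long exons that its main transcript lacks is given too low a level.

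**Figure D2:**
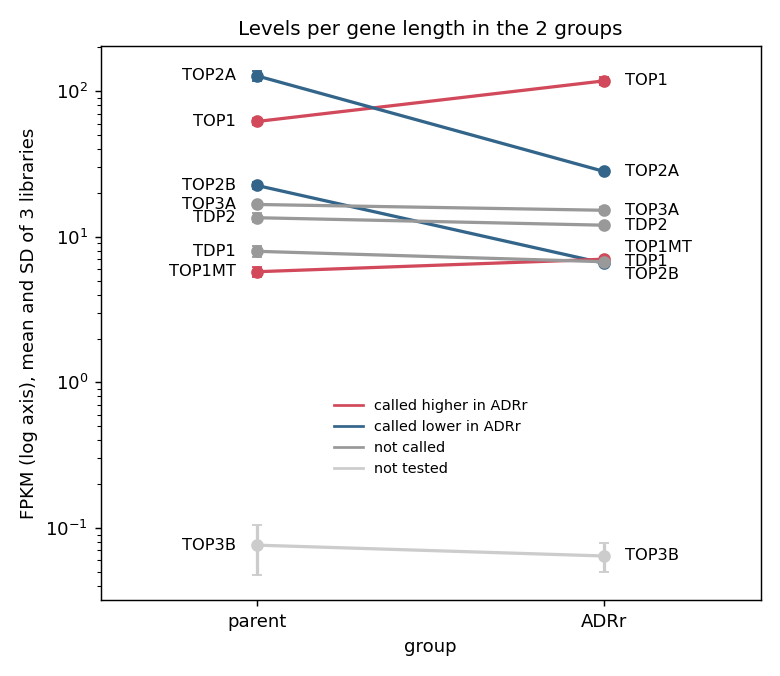
Mean FPKM with SD over 3 libraries (vertical log axis) of the 8 genes in parent and ADRr cells, with lines coloured by the edgeR call. The lines of TOP1 and TOP2A cross, and TOP2B falls from 22.5 to 6.58 FPKM, near the values of TDP1 and TOP1MT. FPKM depends on the annotated length of each gene, so near values need not mean equal levels.

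The promoters of the 3 genes with the largest changes are shown, a choice made after the values were seen. A link between the motifs they hold and their changes was not tested. Each run is the 250 bases before the RefSeq start of the gene (GRCh38.p14), 5′ to 3′ on the strand of the gene, and covers chr17:40417897-40418146 for TOP2A, chr3:25664908-25665157 for TOP2B and chr20:41028572-41028821 for TOP1. Capitals mark matches to CCAAT (the CCAAT box, bound by NF-Y), GGGCGG (the GC box, bound by Sp1 and its relatives) and TTTGAA (a core of the CHR element of cell cycle promoters), searched on both strands, so that their reverse complements are in capitals too.
TOP2A: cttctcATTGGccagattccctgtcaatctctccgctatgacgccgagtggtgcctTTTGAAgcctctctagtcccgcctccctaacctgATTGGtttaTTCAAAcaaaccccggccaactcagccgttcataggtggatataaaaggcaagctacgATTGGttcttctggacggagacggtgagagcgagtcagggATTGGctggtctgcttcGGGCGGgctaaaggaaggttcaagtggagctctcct
TOP2B: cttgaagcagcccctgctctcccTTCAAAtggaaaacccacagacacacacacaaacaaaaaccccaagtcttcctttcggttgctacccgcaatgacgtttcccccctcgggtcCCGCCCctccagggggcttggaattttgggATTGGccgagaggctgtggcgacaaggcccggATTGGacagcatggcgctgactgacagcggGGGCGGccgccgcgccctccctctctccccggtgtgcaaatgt
TOP1: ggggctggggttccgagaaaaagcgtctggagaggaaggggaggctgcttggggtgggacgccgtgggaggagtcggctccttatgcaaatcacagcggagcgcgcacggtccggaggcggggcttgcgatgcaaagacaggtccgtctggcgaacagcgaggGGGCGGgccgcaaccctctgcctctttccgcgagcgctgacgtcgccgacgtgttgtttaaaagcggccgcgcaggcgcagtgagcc
TOP2A had 4 CCAAT boxes, 1 GC box and 2 matches to the CHR core. TOP2B had 2 CCAAT boxes, 2 GC boxes and 1 match to the CHR core, and TOP1 had 1 GC box only. None of these matches overlapped another. Among 35097 promoters of the same length, 32.0% held a CCAAT box, 9.52% held 2 or more and 0.869% held 4 or more, while 42.6% held a GC box (24.3% held 2 or more) and 13.3% held the CHR core (1.72% of all promoters held 2 or more). Of the other genes, TOP3A had 2 GC boxes and no CCAAT box, TDP2 had 3 GC boxes, TDP1 had 1 match to the CHR core and TOP3B had none of these motifs. Promoters were found for 7 of the 8 genes, and that of TOP1MT was not analysed here. A match is a description of the letters and not of binding.

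TOP2A is made in S phase and G2 phase, so its values were set beside a list of 38 proliferation genes. Of these, 35 were called lower and 0 higher, beside 29.6% and 29.2% of all tested genes, and the median log2 fold change was -1.13, with -0.01 for all tested genes. MCM5 (-2.21), MCM3 (-2.15) and PLK1 (-2.03) had the largest decreases in the list, and only MCM5 exceeded the fall of TOP2A. MCM3 and MCM5 are subunits of the replicative helicase and PLK1 is a mitotic kinase. MKI67, the gene of the Ki-67 antigen, fell from 540 ± 21.2 to 249 ± 16.4 CPM (SD, n = 3 libraries each), or -1.11 on the log2 scale. Only 4 genes of the list exceeded the fall of TOP2B. The genes that were not called, BUB1 (-0.12), UBE2C (-0.06) and HMMR (0.11), were chosen after their values were seen. The part of a lower share of cycling cells in the values of TOP2A and TOP2B was not tested. The genes with the pattern most like TOP2A over the 6 libraries, among 10389 protein-coding genes with a mean of at least 100 counts, were MCM3, the condensin subunit NCAPD2 and the spindle protein SPAG5. Their log2 CPM, centred on each gene's mean, differed from that of TOP2A by a root mean square of 0.054, 0.055 and 0.058. Their log2 fold changes were -2.15, -2.19 and -2.20, beside -2.19 for TOP2A. With groups this far apart, such a measure mostly picks genes with a fall of the same size, and shared regulation was not tested.

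**Figure D3:**
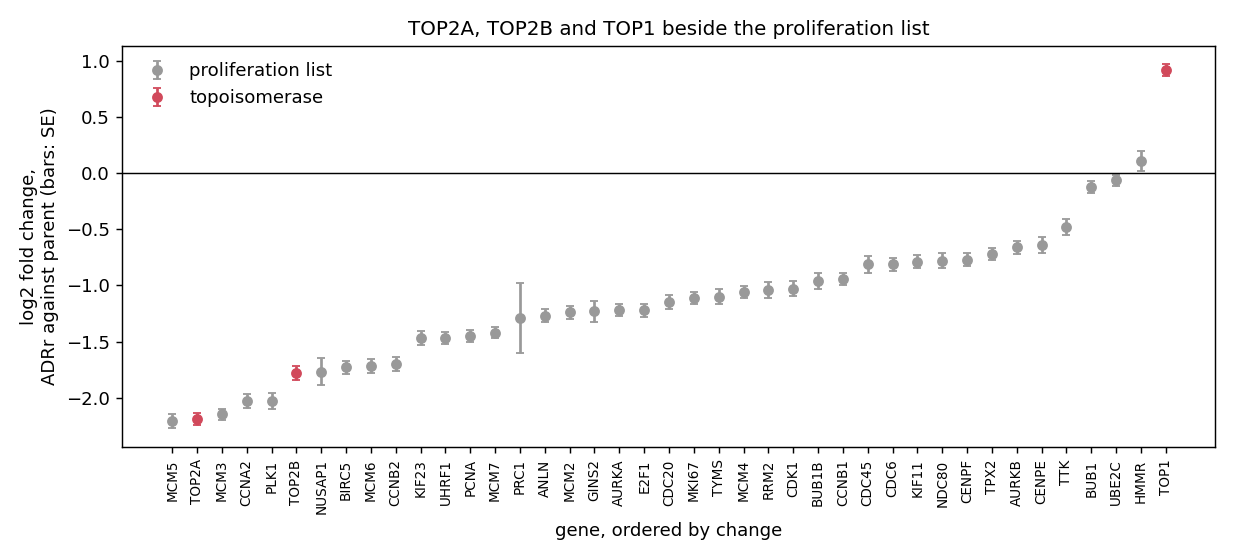
Log2 fold change of ADRr against parent cells (vertical axis, bars are standard errors) for the 38 proliferation genes in grey and for TOP2A, TOP2B and TOP1 in red, ordered by size. TOP2A (-2.19) and TOP2B (-1.78) stand among the genes that fell most and TOP1 (0.92) stands above them all.

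TOP1MT (ENSG00000184428, chromosome 8, 143304384 to 143359979, minus strand) encodes a type I enzyme of mitochondria, made from a nuclear gene. It was at 34.2, 39.4 and 39.9 CPM in parent replicates 1 to 3 and at 45.3, 44.9 and 47.9 CPM in ADRr replicates 1 to 3. The groups did not overlap, but parent replicate 1 lay apart from the other parent libraries by about as much as these lay from the ADRr libraries. The means were 37.9 ± 3.14 CPM and 46.0 ± 1.64 CPM (SD, n = 3 libraries each), and the log2 change of 0.28 ± 0.077 (± standard error; edgeR adjusted p = 0.0029) stood against a required 0.263. Without parent replicate 1 it was 0.21 (adjusted p = 0.04 from edgeR) and without ADRr replicate 3 it was 0.25 (adjusted p = 0.023), and in both cases TOP1MT was no longer called. Among 8 other genes of mitochondrial DNA upkeep, 3 were called higher and 2 lower, near the 29.2% and 29.6% of all tested genes, and the median log2 fold change was 0.05. TWNK, the helicase (0.32), POLG2, the accessory subunit of the polymerase (0.30), and POLRMT, the RNA polymerase (0.27), were the genes called higher. POLG, the catalytic subunit of the polymerase (-0.92), and PRIMPOL, a primase (-0.90), fell. Mitochondrial genes held 4.63 to 4.91% of counts in parent and 4.69 to 5.26% in ADRr libraries.

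TOP3A (ENSG00000177302, chromosome 17, 18271428 to 18315007, minus strand) encodes the enzyme that, with BLM, RMI1 and RMI2, takes apart recombination intermediates, and a form of it works in mitochondria. Its levels were 113, 107 and 111 CPM in parent replicates 1 to 3 and 94.8, 105 and 101 CPM in ADRr replicates 1 to 3. The lowest parent library exceeded the highest ADRr library only slightly. The log2 fold change was -0.14 (95% interval -0.26 to -0.02, adjusted p = 0.042 from edgeR), below the fold change required. All 4 listed partners of TOP3A were called lower, beside 29.6% of all tested genes, with a median of -0.78. The helicase BLM went from 35.03 ± 1.83 to 19.9 ± 1.53 CPM (SD, n = 3 libraries each), or -0.81 on the log2 scale. FANCM (-0.94), a translocase that brings the complex to stalled forks, and RMI2 (-0.75) fell by similar amounts. RMI1 (-0.31) was called although its groups overlapped.

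TOP3B (ENSG00000100038, chromosome 22, 21957025 to 21982816, minus strand) encodes a topoisomerase that also acts on RNA, in a complex with TDRD3 and the fragile X protein. Its raw counts were 5, 9 and 12 for parent and 7, 6 and 10 for ADRr replicates 1 to 3, which overlap, and it did not pass the filter on low counts. In GENCODE 29, exons of the antisense gene AC245452.1 cover 90.7% of the length of TOP3B, and 77.0% of the stretches of 75 bases in TOP3B transcripts also occur, on either strand, in transcripts of other genes. AC245452.1 itself had 58 to 72 counts in parent and 61 to 77 in ADRr libraries. Whether the reads were counted by strand is not given in the sources used here, so reads of the pair cannot be told apart, and the low counts are no measure of how much TOP3B RNA these cells hold. Of its 4 listed partners, FMR1 (-0.58) and FXR1 (-0.56) were called lower, while TDRD3 (0.14) and FXR2 (-0.14) were not called. Of all tested genes, 29.6% were called lower and 29.2% higher, so these few genes say little as a set.

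TDP1 (ENSG00000042088, chromosome 14, 89954939 to 90044768, plus strand) hydrolyses the bond between TOP1 and the end of a DNA strand. Parent replicates 1 to 3 had 51.3, 54.6 and 45.7 CPM and ADRr replicates 1 to 3 had 41.2, 43.8 and 43.2 CPM. The groups lay next to each other without overlap. The log2 fold change was -0.24 (95% interval -0.40 to -0.08, adjusted p = 0.008 from edgeR), just under the fold change required. Parent replicate 3 was the lowest of its group, and without it TDP1 was called lower, at -0.31 (adjusted p = 0.00036 from edgeR). Without ADRr replicate 1 TDP1 was at -0.21 (adjusted p = 0.058 from edgeR) and was not called.

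TDP2 (ENSG00000111802, chromosome 6, 24649977 to 24667033, minus strand) releases type II enzymes from the ends of double-strand breaks. It was at 41.5, 45.9 and 40.3 CPM in parent replicates 1 to 3 and at 37.0, 38.1 and 38.0 CPM in ADRr replicates 1 to 3. The groups did not overlap, and the ADRr libraries lay close together. The log2 fold change was -0.18 (95% interval -0.33 to -0.02, adjusted p = 0.047 from edgeR), below the fold change required. TDP2 RNA thus differed little between the groups, while the RNA of the enzymes it acts on was 4.55-fold and 3.43-fold lower.

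Lists of other genes that act on trapped topoisomerases are read against the 29.2% of all tested genes called higher and the 29.6% called lower. Of 12 genes of the SUMO and protease route, 7 were called lower and 2 higher (58.3% and 16.7%), with a median of -0.48 beside -0.01 for all tested genes. FAM111A (-1.62), a protease that acts on protein crosslinks at forks, and VCP (-1.26), the segregase that pulls proteins off DNA, had the largest decreases. ZNF451, the SUMO ligase that aids TDP2, rose from 66.5 ± 6.36 to 96.0 ± 6.25 CPM (SD, n = 3 libraries each), or by 0.53 on the log2 scale. SPRTN, the main protease of DNA-protein crosslinks, was at -0.20 (adjusted p = 0.057 from edgeR) and was not called.

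The nuclease route, which frees topoisomerases by cutting the DNA, had 4 of 10 genes called lower and 3 higher, with a median of -0.08, so that its shares were near those of all tested genes (29.6% lower, 29.2% higher). Within the MRE11-RAD50-NBN complex the subunits moved apart. MRE11 fell by 0.68, RAD50 rose by 0.89 and NBN was not called (-0.24), while RBBP8 (CtIP), which works with this complex, rose by 0.60. EME1 (-1.21), a partner of the nuclease MUS81, had the largest decrease.

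Among the 6 genes of single-strand break repair after TDP1, 4 were called lower and 1 higher, beside 29.6% and 29.2% of all tested genes, with a median of -0.48. APTX (-0.87), which removes AMP from stalled ligation ends, and the ligase LIG3 (-0.77) had the largest decreases, and the polymerase POLB (0.32) rose. Of the 7 genes of end joining after TDP2, 6 were tested, with 2 called lower, 1 higher and a median of -0.21, beside 29.6% and 29.2% of all tested genes. LIG4, the ligase of this pathway, rose from 13.6 ± 1.17 to 37.6 ± 4.34 CPM (SD, n = 3 libraries each), or by 1.47 on the log2 scale. Its partner XRCC4 (-0.61) fell, as did the kinase ATM (-0.43), and PRKDC, XRCC5 and XRCC6 were not called. NHEJ1 had 0 to 10 counts and was not tested.

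Of 8 partners and modifiers of TOP1 and TOP2, 5 were called lower and 0 higher, beside 29.6% and 29.2% of all tested genes, with a median of -0.35. HMGB2 (-1.71), a chromatin protein that binds TOP2A, had the largest decrease, followed by the cohesin subunit RAD21 (-1.09), found with TOP2B at loop anchors, and TOPBP1 (-1.04), a checkpoint protein first found as a TOP2B partner. TOPORS, a ligase that binds TOP1, was at -0.12 and was not called.

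Among 5 genes tied to the response to topoisomerase poisons, 3 were tested, with 1 called higher and 2 lower, beside 29.2% and 29.6% of all tested genes. The efflux pump ABCG2 rose by 1.58 on the log2 scale, from a low level of 4.07 ± 0.968 to 12.1 ± 1.24 CPM (SD, n = 3 libraries each). LAPTM4B (-0.67) fell, as did the efflux pump ABCC1 (-0.29), from 193 ± 8.37 to 158 ± 3.29 CPM. ABCB1, the P-glycoprotein gene, had 0 to 2 counts in any library, and SLFN11, whose product blocks stalled forks, had 0 to 11 counts, so neither was tested. Of the genes listed for names close to those of topoisomerases, C11orf80, which encodes the TOP6B-like protein, was called higher (0.34). SPO11, the pseudogene TOP3BP1 and TOPAZ1, which is no topoisomerase, had 0 counts in every library, which allows up to 3 counts or 0.164 to 0.188 CPM per library and covers counting error only. TOP6BL, TOP1P1 and TOP1P2 are not symbols of this table, where the gene of the TOP6B-like protein stands as C11orf80.

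**Figure D4:**
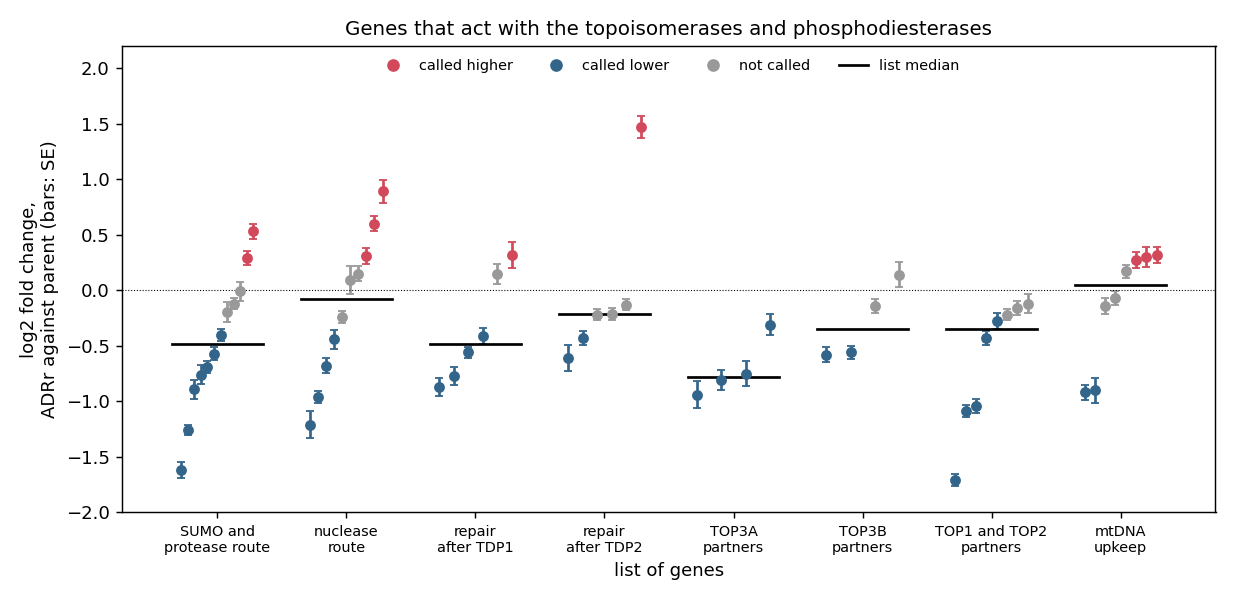
Log2 fold change of ADRr against parent cells (vertical axis, bars are standard errors) for each tested gene of 8 lists of genes that act with the topoisomerases and phosphodiesterases, coloured by the edgeR call, with the list median as a black line. The partners of TOP3A and those of TOP1 and TOP2 lie below 0 throughout. LIG4 (1.47) stands above the other genes of repair after TDP2.

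The genes on either side of each topoisomerase were set beside it, since they show how its region as a whole behaved. For TOP2A, 35 of the 50 nearest tested genes were called lower and 5 higher, in 2.79 Mb around it, and their median log2 fold change was -0.60. The value of TOP2A minus that median was -1.59, and 2 neighbours, P3H4 (-2.20) and FKBP10 (-2.32), named after their values were seen, had larger falls. ERBB2, the receptor gene that is often amplified together with TOP2A in breast cancer, lies 19 tested genes away and fell by 1.24 on the log2 scale. Genes called lower were thus common around TOP2A, set against 29.6% of all tested genes. The part of the region in the value of TOP2A was not tested.

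For TOP2B, 20 of the 50 nearest tested genes were called lower and 9 higher, beside 29.6% and 29.2% of all tested genes. Their median was -0.11, and TOP2B minus that median was -1.67. NGLY1, the next tested gene on one side, was at 0.15, and THRB, the next on the other, at 0.43. Only SUSD5 among these 50 had a larger fall. For TOP1, 23 of the 50 were called higher and 11 lower, beside 29.2% and 29.6% of all tested genes. Their median was 0.31, and TOP1 lay 0.61 above it, with 10 neighbours higher still. The changes of TOP2A, TOP2B and TOP1 were each larger than the median of their surroundings, as is likely for the largest changes described. The part of the region in the values of TOP2B and TOP1 was not tested. The other 4 tested genes lay within 0.42 of the median of their neighbours.

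**Figure D5:**
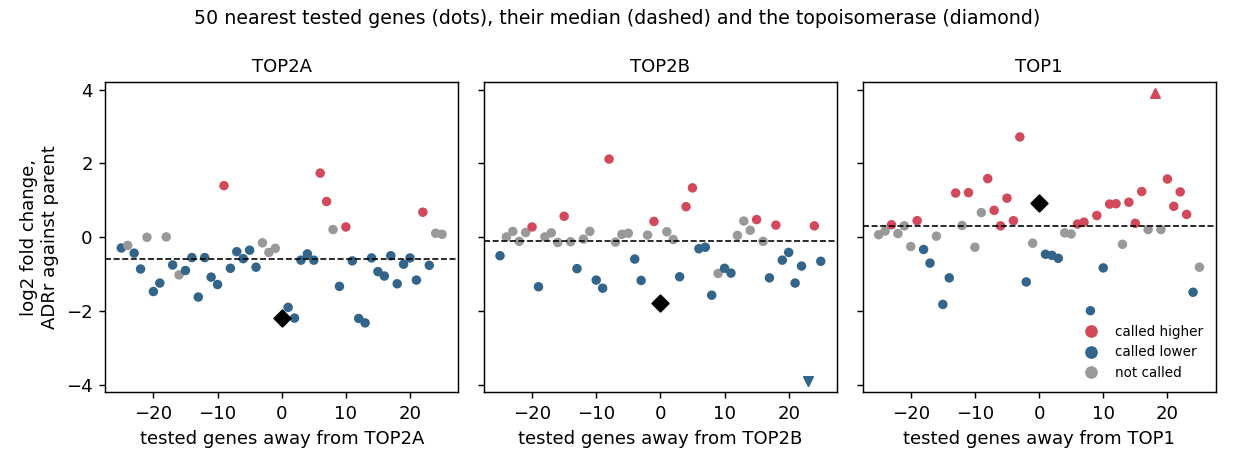
Log2 fold change of ADRr against parent cells (vertical axis) for the 50 tested genes nearest to TOP2A, TOP2B and TOP1, placed by gene order on the chromosome (horizontal axis), with the topoisomerase as a black diamond at 0 and the median of the neighbours dashed. Triangles stand for SUSD5 and KCNK15, whose values of -10.09 and 4.90 lie beyond the axis, and the median is -0.60 around TOP2A, -0.11 around TOP2B and 0.31 around TOP1.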

How the data were processed

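RNA from 3 parent and 3 ADRr libraries was analysed. The methods describe CORALL libraries of polyadenylated RNA and paired-end sequencing on a NovaSeq platform. The submitters' processing notes name fastp, HISAT2 2.0.5, featureCounts 1.5.0-p3, DESeq2 1.20.0 and GRCh38. The authors deposited raw counts for each gene and, in a second table, FPKM values. The identifiers and lengths of all 58735 genes were those of GENCODE 29, and exon overlaps and shared stretches of 75 bases were computed from it. Promoters were taken from RefSeq (GRCh38.p14).

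The count table was fitted with edgeR 4.0.16 under R 4.3.3 (filterByExpr, TMM, quasi-likelihood test, Benjamini-Hochberg adjustment over 15242 genes), without covariates. The threshold of the methods, Log2(1.2), was read as a fold change of 1.2. The alternatives were other scalings and filters, DESeq2 1.42.0, limma 3.58.1 on log2(FPKM + 1) or log2(FPKM + 0.1), a replicate block, other thresholds, other numbers of neighbours and each library left out. Libraries of a group differed by more than sampling noise (chi-square per degree of freedom 2.52 to 7.71). The scripts were tested on simulated data. The members, the lists and the rule for genes named (in each list the largest called changes and the key partners) were chosen with earlier results of these data known, and lists were described by counts and medians without a test. The values of 1 listed gene are not reported here.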

Additional observations from a re-analysis of the deposited data

How the results depend on the processing

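TOP2A and TOP2B were called lower under all 17 alternatives, at -2.24 to -2.13 and -1.81 to -1.63. TOP1 lay between 0.88 and 0.97 and was called under all but a required log2 fold change of 1.2 (0.92 there), which left 0 of the genes described called higher, and, over all genes, 1114 higher and 972 lower. TOP1MT was no longer called under that threshold (0.28) or by limma on log2(FPKM + 1) with a filter (0.25) or without (0.25), which left 1 gene called higher in both cases. By the adjusted p alone TOP3A (-0.14), TDP1 (-0.24) and TDP2 (-0.18) were called as well, 5 genes lower in all. The adjusted p of TOP3A ranged from 0.011 to 0.28 over the alternatives and that of TDP2 from 0.018 to 0.16. For TDP1 it ranged from 0.00036 to 0.066. When each library was left out in turn, 1 to 2 genes were called higher and 2 to 3 lower, with TOP1MT at 0.21 to 0.32 and TDP1 at -0.31 to -0.19. Where TOP3B could be fitted (-0.52 to -0.02) it was not called. The log2 ratio of TOP2A to TOP2B differed between groups by -0.45 to -0.38 with each library left out, and that of TOP1 to TOP2A, an alternative chosen after seeing the data, by 3.07 to 3.16. The distance of TOP1 from its neighbours was 0.58 with the nearest 24 and 0.79 with 100 of them.

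The groups share replicate numbers, but deviations of same-numbered libraries correlated at 0.007, -0.021 and -0.046, so the numbers were not taken as pairs. With a replicate block, 4406 genes were called higher and 4464 lower, TOP2A was at -2.18, and no call of the genes described changed. At these depths TOP3B, with 5 to 12 counts, gave fold changes too imprecise to show a difference.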
